A study of Homo sapiens with 12 samples.

Results

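The genes that move calcium across the endoplasmic reticulum (ER) and the plasma membrane were examined in SW1783 cells, a human astrocytoma line, after treatment with *Aconitum carmichaeli* Debeaux (ACD), an aconite used in traditional medicine and given here as a hot water extract. The set held 10 of the 60675 genes in the count table: the SERCA pumps *ATP2A1*, *ATP2A2* and *ATP2A3*, the plasma membrane pumps *ATP2B1* and *ATP2B4*, the IP3 receptors *ITPR1*, *ITPR2* and *ITPR3*, the ER calcium sensor *STIM1* and the store-operated channel *ORAI1*. The 10 genes were picked by name, family by family, when the dose comparisons of these same libraries were already known. Their changes against vehicle are therefore given as a description, in which passing or missing a threshold places a gene against the spread between libraries and is not independent evidence, and the share of genes that changed in the set supports nothing about calcium genes as a class.

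The study treated the cells for 24 h with vehicle or with ACD at a low (20 µg/mL), medium (100 µg/mL) or high (500 µg/mL) dose and sequenced 3 libraries per group, 12 in all. Per the study's methods the vehicle was PBS with 2% DMSO, and the stock of the extract was made up in the same solvent. Each dose was added in the same volume per well to cells in growth medium. The 2% is thus that of the solution added and not that in the well. All groups were the same cultured line, with no genetic change named in the labels, so that every value is from 1 cell line. The labels' treatment text describes the extraction of a second herb (*Poria cocos*) in place of ACD, and the groups here follow the titles and the treatment field of each sample, which name ACD. Nothing in the labels says that the 3 libraries of a group came from separate cultures, and the errors below then measure only the spread between libraries.

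The libraries held 18863863 to 24200576 counts each. Of 11 astrocyte and glioma markers, 6 had a mean of at least 10 normalised counts, among them *VIM* (88412 in vehicle and 108048 at high dose, group means of 3 libraries), *CD44* (56908 and 43678), *SLC1A3* (690.1 and 126) and *NES* (214 and 64.7). *VIM* thus stood higher and *CD44*, *SLC1A3* and *NES* lower at high dose, without overlap of the libraries, and 24.6% of the exon bases of *VIM* overlap genes on the other strand. The defining astrocyte genes *GFAP* (0 to 6 counts per library, with 19.9% of its exon bases overlapped on the other strand) and *AQP4* (0 in every library) were absent or nearly so, and the cells are called SW1783 cells here. The summed level of 4 neuron markers was 1314 to 1375 normalised counts in the vehicle libraries and 999 to 1067 at high dose, the sum of opposite moves in *SNAP25* (704 and 167, group means) and *SYT1* (638 and 868). That of 4 blood cell markers was 3081 to 3251 and 3918 to 4204, where *CD68* (2864 and 3953) stood higher and *PTPRC* (275 and 84.8) lower. Of the exon bases of *CD68*, 81.6% overlap a gene on the same strand, and its counts were not whole numbers in any library. The summed levels of 4 skeletal muscle and 4 intestinal markers stayed at or under 7.54 in every library. The share of counts from the mitochondrial ribosomal RNAs was 0.913 to 0.960% in the vehicle libraries, 3.01 to 3.33% at the low, 7.67 to 8.05% at the medium and 5.76 to 6.06% at high dose. The part of these differences in the results below was not tested. In bulk RNA, fewer cells of a type and less RNA per cell cannot be told apart.

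Calcium inside a resting cell is kept low by pumps that spend ATP: SERCA pumps carry it from the cytosol into the ER and PMCA pumps push it out through the plasma membrane. When a receptor activates phospholipase C, the messenger IP3 opens IP3 receptors in the ER membrane and stored calcium is released. STIM proteins in the ER membrane sense the loss of stored calcium and open ORAI channels in the plasma membrane, through which the store is refilled. In astrocytes, which fire no action potentials of their own, calcium release through IP3 receptors is a main form of cell signalling.

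Levels below are normalised counts (RSEM expected counts divided by the DESeq2 size factor of the library), and changes are log2 fold changes with their standard error (SE) from 1 DESeq2 fit on all 12 libraries. A gene was called a differentially expressed gene (DEG) by the study's own rule, an adjusted p under 0.05 with a fold change over 1.5. At high dose 5 of the 10 genes were DEGs, *ATP2A3*, *ATP2B1*, *ITPR3* and *STIM1* upward and *ATP2B4* downward, where 18.2% of the 19453 genes tested were DEGs, 8.66% upward and 9.57% downward. At medium dose only *ATP2A3* was a DEG, 1 of the 9 members tested, against 3.81% of all genes. At low dose 0 of 8 members tested by DESeq2 were DEGs against 0.118% of all genes, and edgeR called 0 as well. An unadjusted p under 0.05 was reached there by 2 of the 8 (*ATP2B4* and *ITPR3*), beside 14.2% of all genes tested. By the adjusted p alone, with no fold asked for, 8 of 10 genes passed at high dose (46.5% of all genes), 5 of 9 at medium dose (29.5%) and 1 of 8 at low dose (3.29%). Of the 8, *ATP2A2* and *ITPR1* no longer passed when vehicle 2, vehicle 3 or high 1 was left out, which left 6, or under scaling to total counts. Nothing is read from these shares, because the set was picked with the contrasts known.

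**Figure D1:**
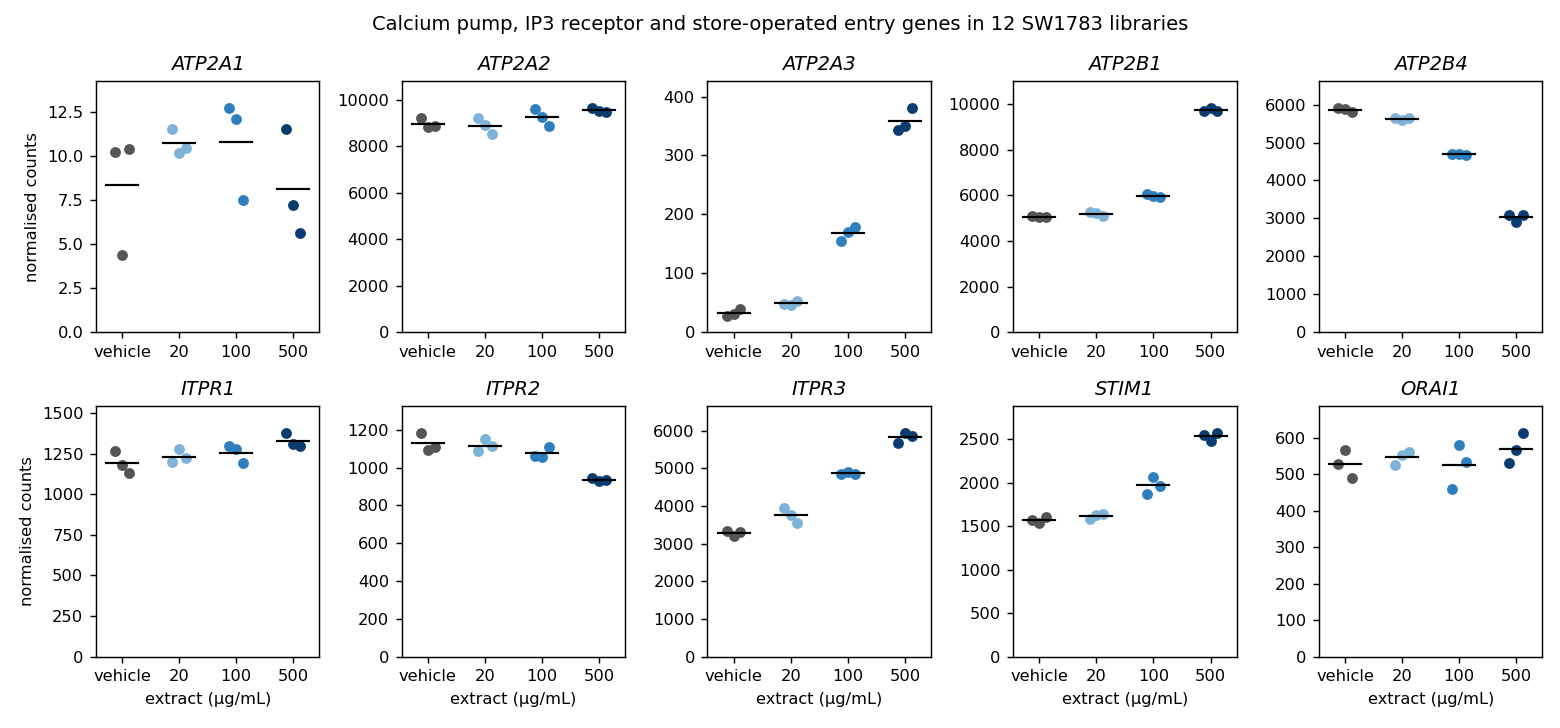
Normalised counts (vertical axes, from 0) of the 10 genes in each of the 12 libraries, by ACD dose in µg/mL (horizontal axes), with 1 dot per library and a bar at the mean of 3. *ATP2A3*, *ATP2B1*, *ITPR3* and *STIM1* stand highest and *ATP2B4* lowest in the 3 libraries at 500 µg/mL, while the dots of *ATP2A1* and *ORAI1* overlap between groups.

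The median log2 fold change of the 10 genes was 0.13 at high dose, 0.07 at medium dose (9 genes) and 0.04 at low dose (8 genes), and that of all genes tested was -0.01, -0.0005 and 0.006. The medium and low doses left 1 and 2 members without an adjusted p, because independent filtering set aside genes with a mean under 18.3 and 263 normalised counts. The high-dose and vehicle libraries did not overlap for 8 of the 10 genes, beside 60.4% of all genes tested. The 3 dose comparisons share the vehicle libraries.

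**Figure D2:**
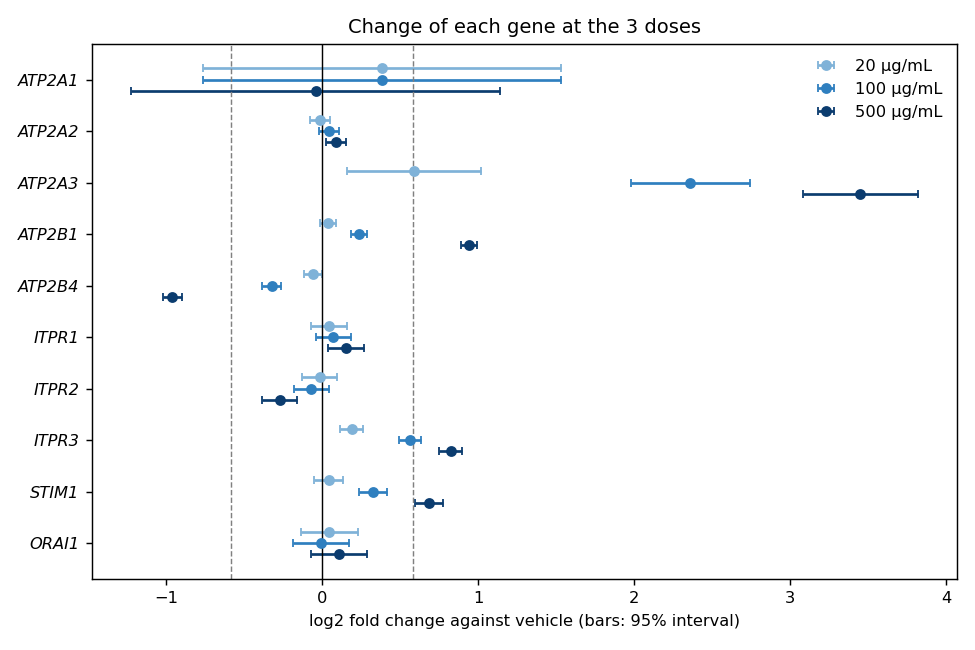
Log2 fold change against vehicle (horizontal axis) of each of the 10 genes at 20, 100 and 500 µg/mL, with 95% intervals from the fit and broken lines at a 1.5-fold change. *ATP2A3* lies farthest to the right (3.45 at high dose), *ATP2B1* and *ATP2B4* lie about as far to the right and left of 0 (0.94 and -0.96), and the wide bars of *ATP2A1* go with its 5 to 13 counts per library.

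The SERCA pumps refill the ER, and their genes differ by tissue: *ATP2A2* encodes the form found in nearly all cells, *ATP2A1* the form of fast skeletal muscle, and *ATP2A3* a form of lower calcium affinity known from blood cells, platelets and some epithelia. *ATP2A3* (ENSG00000074370, chromosome 17, 3923870 to 3964464 in GRCh38, minus strand) was the member with the greatest change. Its normalised counts were 27.7, 31.5 and 39.5 in the vehicle libraries, 48.1, 46.9 and 53.4 at low dose, 154, 170.5 and 179 at medium dose and 344, 350.5 and 381 at high dose. No 2 of the 4 groups overlapped, and the means stood in the order of dose. The log2 fold change against vehicle was 0.59 ± 0.219 (SE) at low dose, 2.36 ± 0.194 at medium dose and 3.45 ± 0.189 at high dose, the last a 10.9-fold higher level. *ATP2A3* was the only one of the 10 genes that was a DEG at medium dose and between the medium and low doses (1.77 ± 0.177), where 1.94% of all genes were DEGs. At low dose its mean was under the filter and no adjusted p was given by DESeq2, and it did not pass the adjusted p of edgeR. Among the 11263 genes with a mean of at least 100 normalised counts it ranked 19th by rise at high dose and 9th at medium dose.

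*ATP2A2* (ENSG00000174437, chromosome 12, 110280756 to 110351093, plus strand) carried nearly all SERCA transcripts. Its normalised counts were 9246, 8819 and 8869 in the vehicle libraries, 9227, 8931 and 8524 at low dose, 9624, 9280.5 and 8876 at medium dose and 9661, 9523 and 9488 at high dose. The high-dose libraries lay just above the vehicle libraries, and the low and medium groups overlapped vehicle. The log2 fold change at high dose was 0.09 ± 0.0335, which passed the adjusted p but was far under the fold of the DEG rule, the pass being lost without vehicle 2, vehicle 3 or high 1, and it turned to -0.02 when libraries were scaled to total counts. *ATP2A1* (ENSG00000196296, chromosome 16, 28878405 to 28904466, plus strand) had 5 to 13 counts per library, and 22.6% of its exon bases overlap *ATP2A1-AS1* and *RABEP2* on the other strand, so that even these counts are uncertain. Its 4 groups overlapped, and the log2 fold change at high dose was -0.04 with a 95% interval from -1.22 to 1.14. Changes inside that interval are compatible with these counts, and the smallest change that could be detected at this depth was not computed.

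Compared per kilobase of exon, *ATP2A3* made up 0.725% ± 0.144 (SD, n = 3) of the SERCA level in the vehicle libraries, 1.10% ± 0.115 at the low, 3.49% ± 0.388 at the medium and 6.94% ± 0.409 at high dose. *ATP2A2* still made up 92.8% ± 0.334 at high dose, against 99.0% ± 0.199 in vehicle. The raw counts of *ATP2A2* per count of *ATP2A3* within a library, a ratio that no library scaling can move, were 224 to 334 in vehicle and 24.9 to 28.1 at high dose. The summed SERCA level was 660 ± 16.9 normalised counts per kilobase in vehicle and 749 ± 5.41 at high dose. These shares and sums depend on the length taken, and the sum depends on the scaling as well. *ATP2A2* held 653 and 695 of it, and its log2 fold change at high dose was -0.02 when libraries were scaled to total counts.

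The PMCA pumps remove calcium from the cell. *ATP2B1* encodes the form found in most tissues, *ATP2B4* another widely expressed form, and *ATP2B2* and *ATP2B3* forms typical of neurons and sensory cells. The windows before the annotated start sites of *ATP2B1* and *ATP2B4* are shown because this pair moved in opposite directions. Both are 250 bases long, are given 5′ to 3′ on the strand of the gene from RefSeq (GRCh38.p14), and carry in capitals each Sp1 box (GGGCGG, or CCGCCC on the other strand). The *ATP2B1* window lies at chr12:89709367-89709616 on the minus strand and the *ATP2B4* window at chr1:203626582-203626831 on the plus strand.
ATP2B1: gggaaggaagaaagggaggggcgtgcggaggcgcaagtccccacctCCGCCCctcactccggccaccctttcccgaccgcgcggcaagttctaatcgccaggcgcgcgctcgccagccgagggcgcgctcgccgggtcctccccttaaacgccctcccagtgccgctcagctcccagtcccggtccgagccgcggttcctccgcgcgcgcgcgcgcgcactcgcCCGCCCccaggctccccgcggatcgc
ATP2B4: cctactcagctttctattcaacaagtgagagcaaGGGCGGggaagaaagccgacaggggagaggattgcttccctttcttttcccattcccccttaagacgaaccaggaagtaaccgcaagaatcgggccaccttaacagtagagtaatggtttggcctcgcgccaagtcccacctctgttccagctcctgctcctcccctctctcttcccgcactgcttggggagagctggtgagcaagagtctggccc

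The *ATP2B1* window was richer in G and C (75.2%) than that of *ATP2B4* (55.6%), with 38 CpG pairs against 8, and held 2 Sp1 boxes against 1. An Sp1 box stood in 45% of all 35116 RefSeq windows of 300 bases. Windows were found for 7 of the 10 members, 13 windows in all. None of the 13 held, on either strand, the ER stress element ERSE (its CCAAT and CCACG parts at their fixed spacing), ERSE-II (ATTGG and CCACG 1 base apart), the cyclic AMP response element CRE (TGACG followed by TCA) or the CARE element bound by ATF4 (TGATG, any base, AA and any base). These stood in 0.0769%, 0.0541%, 1.85% and 3.61% of all windows. The absence of a match says only that these letters are not in these windows.

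*ATP2B1* (ENSG00000070961, chromosome 12, 89588049 to 89709366, minus strand) had 5109, 5039 and 5048 normalised counts in the vehicle libraries, 5269, 5224 and 5103 at low dose, 6048, 5949 and 5936 at medium dose and 9684, 9826 and 9672 at high dose. The low-dose group overlapped vehicle, the medium group lay above both, and the high group lay far above all other libraries. The log2 fold change was 0.94 ± 0.0258 at high dose (1.92-fold), 0.24 ± 0.0267 at medium dose and 0.04 ± 0.0270 at low dose. Most of the rise lay between the medium and high doses (0.70 ± 0.0255), a comparison in which 3 of the 10 genes were DEGs (*ATP2A3*, *ATP2B1* and *ATP2B4*) beside 10.2% of all genes.

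*ATP2B4* (ENSG00000058668, chromosome 1, 203626832 to 203744081, plus strand) had 5912, 5894 and 5795 normalised counts in the vehicle libraries, 5641, 5593 and 5655 at low dose, 4689.9, 4705 and 4674 at medium dose and 3099, 2892 and 3079 at high dose. No 2 groups overlapped, and each dose stood below the one before it. *ATP2B4* fell by 0.96 ± 0.0316 on the log2 scale at high dose, to 0.515 of the vehicle level, and by 0.32 ± 0.0303 at medium dose. At low dose the log2 fold change was -0.06 ± 0.0299 and did not pass the adjusted p. It was the only member called downward, and ranked 416th by fall among the 11263 genes.

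The opposite course of the pumps was seen within each library. *ATP2B1* had 0.855 to 0.871 raw counts per count of *ATP2B4* in the vehicle libraries, 0.902 to 0.934 at low dose, 1.26 to 1.29 at medium dose and 3.12 to 3.40 at high dose, and no 2 groups overlapped. Per kilobase of exon, the share of *ATP2B1* in the sum of the pair was 46.3% ± 0.233 (SD, n = 3) in vehicle, 48.0% ± 0.496 at the low, 56.0% ± 0.255 at the medium and 76.2% ± 0.843 at high dose. The sum of the pair was 1149 ± 9.38 normalised counts per kilobase in vehicle, 1138 ± 8.05 at the low, 1121 ± 6.84 at the medium and 1340 ± 3.46 at high dose. By this length the summed level moved by fewer counts per kilobase, from lowest to highest group, than that of either pump. These shares and sums depend on the length taken. With the longest annotated transcript as length, *ATP2B1* stood above *ATP2B4* already in vehicle (702 and 661 normalised counts per kilobase). By that length the sum no longer moved by less than *ATP2B4* (661 in vehicle and 341 at high dose). The other PMCA genes were at the limit of detection, *ATP2B2* with 0 to 3 and *ATP2B3* with 0 to 1 counts per library.

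**Figure D3:**
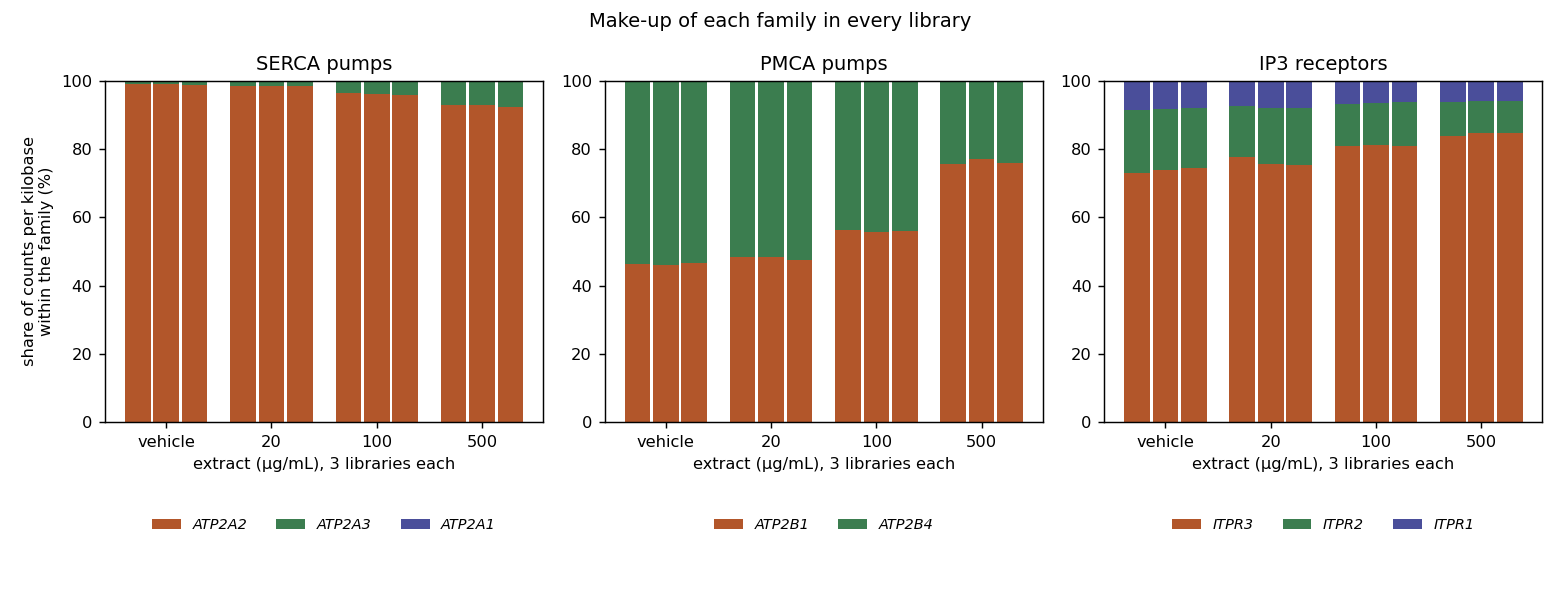
Share of each gene in the level per kilobase of exon of its family (vertical axis, percent) in each of the 12 libraries, by ACD dose in µg/mL (horizontal axis), for the SERCA pumps, the PMCA pumps and the IP3 receptors. *ATP2A2* holds over 92% of the SERCA level in every library, the share of *ATP2B1* reaches 75.7 to 77.2% of the PMCA pair at 500 µg/mL, and that of *ITPR3* reaches 83.8 to 84.9% of the IP3 receptors.

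The IP3 receptors are the channels through which IP3 releases calcium from the ER, and a channel is built from 4 subunits of the same or different types. *ITPR1* is the type known from neurons, *ITPR2* the main type of astrocytes in rodent brain, and *ITPR3* a type common in epithelia and dividing cells that is also found where the ER meets mitochondria. *ITPR3* (ENSG00000096433, chromosome 6, 33620365 to 33696574, plus strand) had 3341, 3218 and 3319 normalised counts in the vehicle libraries, 3944, 3774 and 3548 at low dose, 4848, 4903 and 4843 at medium dose and 5669, 5951 and 5859 at high dose. No 2 groups overlapped. The log2 fold change was 0.19 ± 0.0379 at low dose, the only one among the members tested there to pass the adjusted p, 0.56 ± 0.0373 at medium dose and 0.82 ± 0.0370 at high dose. The medium dose, at 1.48-fold, was just under the 1.5-fold rule, and the high dose, at 1.77-fold, above it. *ITPR3* differed from *ATP2B1* in where its rise lay: it gained more between the low and medium doses (0.37 ± 0.0371) than between the medium and high doses (0.26 ± 0.0361), although that contrast of steps was not tested. Of its exon bases 10.4% overlap *UQCC2* on the other strand, and its counts were not whole numbers in any library, so that some reads were shared out by RSEM.

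*ITPR1* (ENSG00000150995, chromosome 3, 4493345 to 4847506, plus strand) had 1264, 1181 and 1130.2 normalised counts in vehicle, 1196, 1277 and 1220.1 at low dose, 1295, 1276 and 1192 at medium dose and 1379, 1308 and 1295 at high dose. The high-dose libraries lay just above vehicle without overlap, and the low and medium groups overlapped vehicle. At high dose it had a log2 fold change of 0.15 ± 0.0578 that passed the adjusted p and not the fold, and the pass was lost without vehicle 2, vehicle 3 or high 1. At medium dose the value was 0.07 ± 0.0581 and turned to -0.04 under scaling to total counts. *ITPR2* (ENSG00000123104, chromosome 12, 26335352 to 26833194, minus strand) had 1185, 1091 and 1110.5 normalised counts in vehicle, 1087, 1149.5 and 1112 at low dose, 1062, 1057 and 1106 at medium dose and 942, 929 and 934 at high dose. Only the high-dose libraries lay wholly below vehicle, and *ITPR2* fell by 0.27 ± 0.0575 on the log2 scale, past the adjusted p and short of the fold.

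Within each library *ITPR3* had 1.36 to 1.48 raw counts per count of *ITPR1* and *ITPR2* together in vehicle and 2.44 to 2.66 at high dose. Per kilobase its share of the IP3 receptor level was 73.8% ± 0.706 (SD, n = 3) in vehicle, 76.2% ± 1.22 at the low, 80.9% ± 0.177 at the medium and 84.5% ± 0.542 at high dose. The summed IP3 receptor level was 452 ± 10.9 normalised counts per kilobase in vehicle, 499 ± 19.4 at the low, 609 ± 2.83 at the medium and 699 ± 12.8 at high dose. These shares and sums depend on the length taken, which for *ITPR1* is 32120 bases over all exons and 9908 in the longest transcript. With the longest transcript, vehicle levels were 120 for *ITPR1*, 89.8 for *ITPR2* and 334 for *ITPR3*, so that the share of *ITPR3* is lower. The other ER release channels, the ryanodine receptors, had few counts: *RYR1* had 0 to 2, *RYR2* 0 to 5 and *RYR3* 4 to 22 counts per library, with no DEG among them.

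Store-operated entry needs a sensor and a channel. *STIM1* (ENSG00000167323, chromosome 11, 3854527 to 4093210, plus strand), the main sensor of store depletion, had 1567, 1539 and 1608 normalised counts in the vehicle libraries, 1584, 1627 and 1642 at low dose, 1871, 2066 and 1961 at medium dose and 2542, 2477 and 2573 at high dose. The low group overlapped vehicle, and the medium and high groups each stood above the groups before them. The log2 fold change was 0.69 ± 0.0459 at high dose (1.61-fold) and 0.33 ± 0.0468 at medium dose. The high-dose value was close to the fold of the DEG rule: the call was lost when libraries were scaled to total counts (0.57) or when the Wald test was made against the 1.5-fold change itself.

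*ORAI1* (ENSG00000276045, chromosome 12, 121626509 to 121643218, plus strand), the pore of the channel that STIM proteins open, had 528, 565 and 489 normalised counts in vehicle, 524, 553 and 559.8 at low dose, 460.2, 579 and 532 at medium dose and 529, 566 and 614 at high dose. Its 4 groups overlapped. The log2 fold change at high dose was 0.11 with a 95% interval from -0.07 to 0.29, and it lay at -0.002 under scaling to total counts. Within each library *STIM1* had 2.72 to 3.29 raw counts per count of *ORAI1* in vehicle, 2.93 to 3.02 at low dose, 3.57 to 4.07 at medium dose and 4.19 to 4.81 at high dose, so that the ratio lay above all vehicle libraries at the medium and high doses.

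The paralogs of this pair, which are not members, moved otherwise. *STIM2*, a second ER sensor that responds to smaller losses of stored calcium, had 445, 457 and 433 normalised counts in vehicle and 281, 280.2 and 295 at high dose. It was a DEG (log2 fold change -0.64 ± 0.0931, DESeq2 adjusted p = 3.6e-11), opposite in direction to *STIM1*. Within each library *STIM1* had 3.37 to 3.71 counts per count of *STIM2* in vehicle and 8.73 to 9.04 at high dose, without overlap. *ORAI2* fell by 0.36 ± 0.0465 on the log2 scale (adjusted p = 1.1e-13), short of the 1.5-fold rule. *ORAI3* passed the adjusted p upward and was short of that fold as well. Of its exon bases 52.9% overlap a gene on the same strand, and its counts were not whole numbers in any library.

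Levels of different genes were compared only per kilobase of exon. In the vehicle libraries the order was *ATP2A2* (653 ± 17.0 normalised counts per kilobase, SD, n = 3), *ATP2B4* (617 ± 6.63), *ATP2B1* (532 ± 4.01), *ITPR3* (334 ± 6.63), *ORAI1* (185 ± 13.4), *STIM1* (131 ± 2.87), *ITPR2* (81.1 ± 3.56), *ITPR1* (37.1 ± 2.11), *ATP2A3* (4.78 ± 0.879) and *ATP2A1* (1.84 ± 0.756). No neighbours in this order overlapped over the 3 libraries. At low dose the order was the same. At medium dose *ATP2B1* (628 ± 6.44) stood above *ATP2B4* (494 ± 1.62), which overlapped *ITPR3* (493 ± 3.37), and *ORAI1* overlapped *STIM1*.

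At high dose *ATP2B1* led (1021 ± 8.96 normalised counts per kilobase), ahead of *ATP2A2* (695 ± 6.65), *ITPR3* (590.3 ± 14.5) and *ATP2B4* (318 ± 12.02). *STIM1* (210.2 ± 4.09) and *ORAI1* (200.2 ± 14.9) overlapped, and *ATP2A3* (52.0 ± 2.85) had passed *ITPR1* (41.3 ± 1.40). The order depends on the length taken, at high dose as in vehicle. With the longest annotated transcript in place of all exons, *ITPR1* stood above *ITPR2* in vehicle, *STIM1* above *ORAI1*, and *ATP2B1* above *ATP2B4*. At high dose, by that length, *ATP2A3* (74.2 normalised counts per kilobase) had not passed *ITPR1* (134). *STIM1* (533) then stood above both *ATP2B4* (341) and *ORAI1* (219).

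A wider list of 89 genes that work with the 10 was taken from general knowledge of the pathway (other calcium transporters and channels, regulators of the pumps, phospholipases C, IP3 kinases and phosphatases, ER calcium buffers, mitochondrial uptake, calmodulin, calcineurin and NFAT). It was drawn up with earlier results of these data known. Of these, 87 were matched to the count table and 85 had counts. At high dose 12 of the 72 tested (16.7%) were DEGs, 8 upward and 4 downward, close to the 18.2% of all genes. By the adjusted p alone, with no fold asked for, 51 of the 72 passed (70.8%), beside 46.5% of all genes. Nothing is read from either share. At medium dose 4 of 63 were DEGs, beside 3.81% of all genes. At low dose 0 of 50 were DEGs by DESeq2 and 0 by edgeR, beside 0.118% of all genes, and 11 of the 50 had an unadjusted p under 0.05, beside 14.2%. The median log2 fold change of the list at high dose was 0.01, beside -0.01 for all genes.

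**Figure D4:**
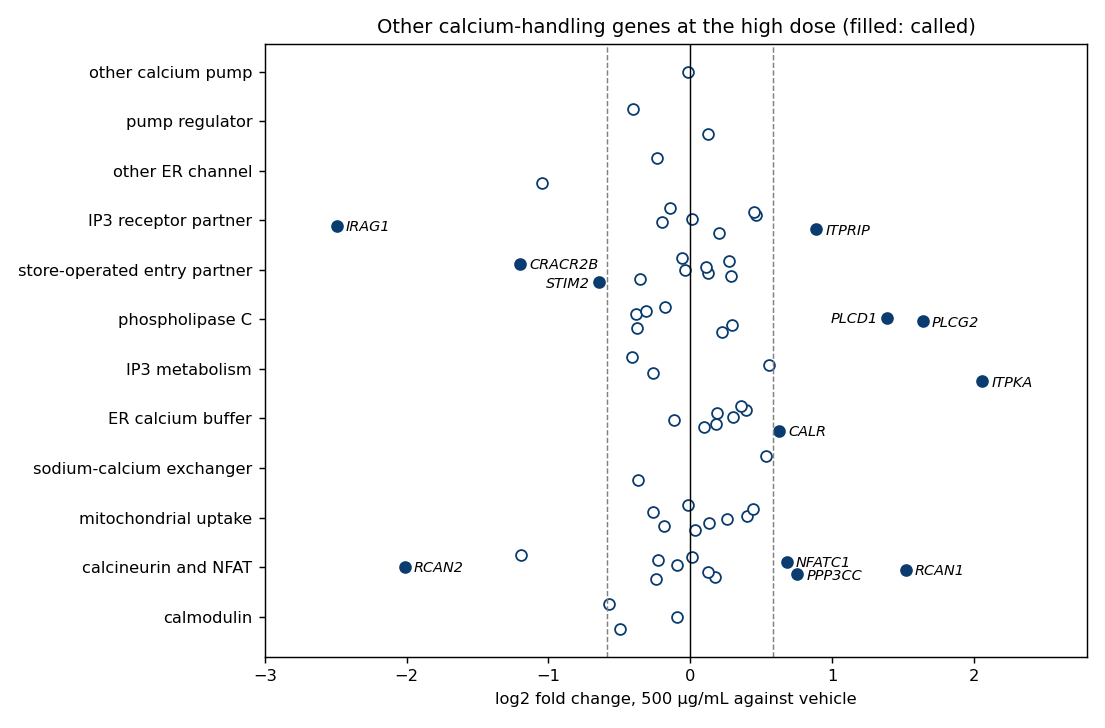
Log2 fold change at 500 µg/mL against vehicle (horizontal axis) of the 66 other calcium-handling genes with a mean of at least 10 normalised counts, in rows by role, with 1 circle per gene, filled for the 12 DEGs, and broken lines at a 1.5-fold change. Most circles lie between the lines, and *ITPKA* (2.06) and *IRAG1* (-2.49) lie farthest out.

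Upstream of the IP3 receptors, 2 of the 11 phospholipase C genes tested (12 listed) were DEGs at high dose, where 18.2% of all genes were. *PLCD1*, a calcium-activated form, had 260.3, 261 and 259 normalised counts in vehicle, 369.8, 407 and 424 at medium dose and 659, 688 and 688 at high dose (log2 fold change 1.38 ± 0.0925, DESeq2 adjusted p = 3.6e-49). *PLCG2*, the main form of many blood cells, was a DEG at far lower counts, 4.38 to 8.20 against 15.3 to 24.3 (1.64 ± 0.599, adjusted p = 0.0152). Its medium-dose libraries (4.64 to 25.4) overlapped both groups. Over the 4 groups *PLCG2* did not pass the DESeq2 likelihood ratio test (adjusted p = 0.0621). *ITPKA*, a kinase that converts IP3 to IP4, had 87.1, 78.8 and 98.9 normalised counts in vehicle, 241, 245 and 228 at medium dose and 331, 381 and 384 at high dose (2.06 ± 0.146, adjusted p = 1.0e-43). These libraries did not overlap for *PLCD1* or *ITPKA* at either dose.

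Of 8 partners of the IP3 receptors, *ITPRIP*, whose product binds the receptor, rose by 0.89 ± 0.0440 (adjusted p = 6.4e-89), and *IRAG1*, through which cGMP-dependent kinase restrains IP3-driven release in smooth muscle, fell by 2.49 ± 0.305 on the log2 scale (adjusted p = 2.7e-15). *IRAG1* had 71.8 to 90.2 normalised counts in vehicle and 9.91 to 20.8 at high dose. Of the 10 partners of store-operated entry tested (12 listed), *STIM2* and *CRACR2B* were DEGs, both downward. At high dose 18.2% of all genes tested were DEGs, 9.57% downward, and nothing is read from the counts of either group of partners. *CRACR2B*, which encodes a regulator of ORAI channels, had 20.2 to 29.1 normalised counts in vehicle and 8.42 to 13.5 at high dose (log2 fold change -1.20 ± 0.438, adjusted p = 0.0149). Over the 4 groups it did not pass the DESeq2 likelihood ratio test (adjusted p = 0.105).

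In the ER lumen, *CALR*, which encodes the calcium-binding chaperone calreticulin, was the only DEG of the 8 buffer genes tested (11 listed). It stood at 33006 ± 772 normalised counts (SD, n = 3) in vehicle and 50965 ± 862 at high dose (log2 fold change 0.63 ± 0.0206, adjusted p = 8.0e-202). None of the 8 genes of mitochondrial calcium uptake, the 2 sodium-calcium exchangers tested or the 3 calmodulin genes was a DEG. Of all genes tested, 18.2% were DEGs at high dose. Of the 4 exchangers listed, the rest had too few counts to be tested. The calmodulin genes had a median log2 fold change of -0.49. The Golgi pump gene *ATP2C1* was no DEG at any dose, and its dosed libraries overlapped vehicle. Its paralog *ATP2C2* had 2.24 to 12.9 counts per library, and 26.2% of its exon bases overlap *ATP2C2-AS1*.

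Downstream of cytosolic calcium, calmodulin activates the phosphatase calcineurin, which frees NFAT factors to enter the nucleus, and RCAN proteins bind and restrain calcineurin. *RCAN1* had 2202, 2120.2 and 2097 normalised counts in vehicle, 1953, 2010.4 and 1923 at low dose, 3870.3, 3965 and 3868 at medium dose and 6133, 6032 and 6237 at high dose. *RCAN2* had 1321, 1230.0 and 1299.9 in vehicle, 1145, 1091 and 1084 at low dose, 738, 747 and 759 at medium dose and 313, 321 and 318 at high dose. The log2 fold changes at high dose were 1.52 ± 0.0349 and -2.02 ± 0.0708 (adjusted p = 3.5e-176 for *RCAN2*). *RCAN1* was lower at low dose (-0.12 ± 0.0382, adjusted p = 0.0383) and higher at medium dose (0.87 ± 0.0358, adjusted p = 7.8e-127).

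Within each library *RCAN1* had 1.61 to 1.72 raw counts per count of *RCAN2* in vehicle and 18.8 to 19.6 at high dose. The catalytic calcineurin subunit gene *PPP3CC* had 414 to 451 normalised counts in vehicle and 708 to 729 at high dose (log2 fold change 0.76 ± 0.0852, adjusted p = 7.1e-18), with 10.3% of its exon bases overlapped by a gene on the other strand. *NFATC1* was a DEG upward as well, at low counts (24.6 to 31.2 normalised counts in vehicle and 38.7 to 52.4 at high dose). It did not pass the DESeq2 likelihood ratio test over the 4 groups (adjusted p = 0.213). *ATP2B1* and *ATP2B4*, *STIM1* and *STIM2*, and *RCAN1* and *RCAN2* each had 1 DEG upward and 1 downward at high dose. This likeness was noticed after the values were seen and does not hold for every family. *RCAN3* (554 normalised counts in vehicle and 518 at high dose, group means) was no DEG, with 17.5% of its exon bases overlapped on the other strand. The SERCA pumps, IP3 receptors and ORAI genes held no such pair.

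For the 3 members with the greatest change, the genes of most like course over the 9 treated libraries were sought among the 11263 genes with a mean of at least 100, by the root mean square difference of log2 levels set to the vehicle mean. Closest to *ATP2A3* was *NUPR1*, a stress-induced nuclear protein gene (difference 0.134 on the log2 scale), followed by *RAB39B*, a Rab GTPase gene (0.228), and *SIK1*, a salt-inducible kinase gene (0.259). *NUPR1* had log2 fold changes of 0.66, 2.16 and 3.43 at the low, medium and high doses, beside 0.59, 2.36 and 3.45 for *ATP2A3*. Closest to *ATP2B4* were *SPDL1*, a spindle adaptor gene (0.0298), *LDHA*, a lactate dehydrogenase gene (0.0387), and *MAGED1* (0.0409). Closest to *ATP2B1* were *GNA13*, a G protein subunit gene (0.0421), *BHLHE40*, a transcriptional repressor gene (0.0447), and *TLE1*, a corepressor gene (0.0474). The points share libraries, scaling and vehicle mean, and the likeness is a description with no test.

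Across the 4 groups together, 7 of the 10 genes passed the DESeq2 likelihood ratio test at an adjusted p under 0.05, as 45.8% of all genes tested did, and *ATP2A1*, *ITPR1* and *ORAI1* did not. The count was 6 without vehicle 2, high 1 or low 3, and under scaling to total counts. Scaled to total counts in place of size factors, the median log2 fold change of all genes was -0.12 at the high and -0.11 at medium dose, and the share of DEGs that were upward went from 47.5% to 34.1% and from 61.3% to 35.4%. The 5 members called at high dose kept their directions under this scaling, 4 of them with their calls and *STIM1* without, and the ratios of raw counts within libraries given above do not depend on it.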

How the data were processed

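RNA from 12 SW1783 libraries (3 per group) was sequenced by the authors as 100 bp paired-end reads from a directional mRNA kit. The deposited values are RSEM expected counts per Ensembl gene on GRCh38, made by the authors. The submitters' processing notes list FastQC 0.11.9, Trim Galore 0.6.5, STAR 2.7.3a and RSEM 1.3.3. Whether RSEM counted by strand is not given in the sources used here, so reads of overlapping genes on opposite strands cannot be told apart and overlaps above 10% of exon bases are given for the genes named. Reads shared between paralogs were split by RSEM. Genes on the same strand overlap 81.6% of the exon bases of *CD68*, 52.9% of *ORAI3*, 24.3% of *PLCG2* and 13.2% of *RCAN1*.

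Groups followed the sample titles. Expected counts were rounded and fitted in DESeq2 1.42.0 (R 4.3.3) with group as the only term over all 12 libraries (two-sided Wald test, Benjamini-Hochberg adjustment over all genes tested, independent filtering at 0.05). DEGs had an adjusted p under 0.05 and a fold change over 1.5. edgeR 4.0.16, other scalings, filters, thresholds, samples in the fit, a replicate block and leaving out each library were alternatives. The scripts were tested on simulated data. Symbols, positions and exon lengths came from GENCODE 44, which held 93.2% of the gene IDs and 99.9% of the counts. Start-site windows came from RefSeq (GRCh38.p14) for 7 of 10 members.

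The 10 members and the lists were chosen with earlier results of these data known. All members are named. Of the wider list, DEGs against vehicle with a mean of at least 10 normalised counts and paralogs of members are named, with values for at most 3 per role, those with the greatest log2 fold changes at high dose. PLCG2, a DEG with a mean just above that limit, is among them. NFATC1 and RCAN3 are given with values outside these rules. Marker lists (astrocyte and glioma, neuron, skeletal muscle, intestinal epithelium, blood cells, endothelium) were summed per library, and the endothelium list (2 genes) reached 2.80 to 16.6 normalised counts. Replicates differed by more than sampling noise (chi-square per degree of freedom 2.06 to 3.77), and none was a copy of another. Between the medium and low doses, deviations from the group means of same-numbered libraries correlated at 0.124, 0.158 and 0.193, all over 0.1, so that there the replicate numbers were taken to pair the libraries.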

Additional observations from a re-analysis of the deposited data

How the results depend on the processing

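The DEG calls of the 10 genes in the 5 comparisons changed under the other call rules and under scaling to total counts, and under none of the other alternatives run. Passes of the adjusted p alone were less stable: at high dose *ATP2A2* lost it without vehicle 2, vehicle 3 or high 1 (adjusted p from DESeq2 0.0542 to 0.0969), as did *ITPR1* (0.0729 to 0.136). Scaled to total counts, both lost it, while *ATP2B4* at low dose and *ITPR2* at medium dose gained it. Over the 4 groups together 6 or 7 members passed when 1 library was left out (6 without vehicle 2, high 1 or low 3), 6 under scaling to total counts and 8 in edgeR, against 7. *ATP2A3* kept its call in every alternative and comparison where it was a DEG, leaving out any 1 library included. With an adjusted p alone and no fold, 8 members, 51 genes of the wider list and 9040 genes in all passed at the high dose, 5, 24 and 4157 at the medium, 1, 5 and 306 at the low dose, 6, 34 and 6738 between high and medium, and 5, 14 and 2657 between medium and low. With a fold of 2 the counts were 1, 7 and 1730 at the high dose and 1, 2 and 642 between high and medium, with *ATP2A3* the member still called. For the wider list and all genes they were 1 and 161 at the medium dose and 1 and 81 between medium and low, and 2 genes in all at the low dose. Tested against the fold itself, the wider list and all genes gave 6 and 1491 at the high dose, 2 and 114 at the medium dose, 3 and 480 between high and medium, 68 genes in all between medium and low and 2 at the low dose. There *STIM1* at the high dose and *ATP2B4* between high and medium lost their calls. edgeR called 809 genes in all at the medium dose, 30 at the low dose and 427 between medium and low, against 537, 11 and 273. With only the compared groups in the fit, 6 genes were called at the low dose. Scaled to total counts, *STIM1* lost its call at the high dose (0.57) and small values changed sign: *ATP2A2* -0.0232 and *ORAI1* -0.0023 at the high dose, *ATP2A2* -0.0668 and *ITPR1* -0.0387 at the medium dose, and *ATP2A1* -0.0736, *ATP2A2* -0.0166 and *ITPR1* -0.0480 between medium and low, where upward DEGs went from 69.6% to 49.8%. The value of *ATP2A1* between medium and low, 0.0009, was -0.0025 in edgeR and -0.000632 with a filter of 10 counts in 3 libraries. The causes were not tested. With the longest transcript as length, the vehicle positions of *ATP2B1*, *ATP2B4*, *STIM1*, *ORAI1*, *ITPR1* and *ITPR2* were 2, 3, 5, 6, 7 and 8.

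Leaving out 1 library at a time gave 6 to 13 genes in all at the low dose (6 without low 1 or low 2, 7 without vehicle 3). It moved small log2 values across 0: *ATP2A1* from -0.37 to 0.17 at the high dose, *ATP2A2* from -0.0407 to 0.0159, *ITPR2* from -0.0402 to 0.0204 and *ORAI1* from -0.0037 to 0.101 at the low dose, *ORAI1* from -0.0857 to 0.0732 at the medium dose, and *ATP2A1* from -0.13 to 0.21 and *ORAI1* from -0.133 to 0.0267 between medium and low.

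The labels number the replicates alike in each group, but nothing says that a number marks a shared culture or day. Over 18 same-numbered pairs the correlation of deviations from the group means ran from -0.118 to 0.221 (median -0.013) and was over 0.1 in 5, of which 3 were all the pairs between medium and low. No pair of unlike numbers was over 0.1. The numbers were taken to pair the libraries between medium and low only, where the block left 1 member and 235 genes in all as DEGs, against 1 and 273. The log2 fold changes and errors given above between medium and low are from the fit without the block. With the replicate number as a block, 5, 1 and 0 members were DEGs at the high, medium and low doses and 3 between high and medium, the same counts as without it, and 3297, 488 and 11 genes in all at the 3 doses.

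With 3 libraries per group and 1 cell line, the errors cover library spread only. *ATP2A1* was too rare to measure a change, and transcript levels say nothing here of protein, calcium flux or splice forms. Genes with a mean under 263 normalised counts were not tested at the low dose. The 12 libraries differ in mitochondrial ribosomal RNA by group, and the part of this in the results was not tested. Estimating size factors without mitochondrial genes left the called members the same in number at each dose. This cannot speak to that part, because a size factor is a median over many genes and moved little. The median log2 fold change of all genes tested at the high dose was -0.0131, against -0.00958 with all genes in. Scaled to total counts, *STIM1* lost its call at the high dose.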
